A study of Mus musculus with 17 samples.

Results

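The tumors described here are the 5 with the highest and the 5 with the lowest level of Hspa1a among 17 neuroblastomas of TH-MYCN mice. They were chosen by ranking all 17 tumors on the log2 value of the only probe set annotated to Hspa1a alone, so 10 of 17 tumors entered the comparison and 7 lay between the groups. Every tumor carried the same transgene, human MYCN under the rat tyrosine hydroxylase promoter, which directs the gene to cells of the neural crest lineage, and the mice were hemizygous on an inbred background. The tumors were primary abdominal tumors, measured once each on a whole-genome mouse array (Affymetrix) from total RNA. The labels give no age, sex or treatment for a single tumor, so high and low are ends of one labelled group and not the arms of an experiment. All values are log2 array signals, where a step of 1 is a doubling, and levels of different genes cannot be compared with each other.

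Hspa1a and its neighbour Hspa1b encode the stress-inducible HSP70, a chaperone that binds unfolded proteins and helps them refold. In cells that meet heat, low oxygen, handling or other insults to their proteins, heat shock factor 1 (HSF1) binds short repeated elements before these genes and switches them on within minutes. The same factor induces the small heat shock proteins, which hold unfolded proteins, the HSP110 and J-domain proteins, which drive the HSP70 cycle, HSP90 and the mitochondrial chaperonin.

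The heat shock element is built of GAA units and their reverse, TTC. The stretches before 4 heat shock genes are shown because these families are described below, 1 gene for each of the inducible HSP70, small heat shock protein, HSP110 and chaperonin families. Each is the 250 bases before the first RefSeq start of the gene (GRCm38.p6), printed from 5′ to 3′ on the gene's strand, at chr17:34959239-34959488 (minus strand) for Hspa1b, chr5:135887669-135887918 (plus) for Hspb1, chr5:149636337-149636586 (minus) for Hsph1 and chr1:55087898-55088147 (plus) for Hspe1. Capitals mark the units of each match to GAANNTTC or TTCNNGAA, both of which read the same on the other strand.
Hspa1b: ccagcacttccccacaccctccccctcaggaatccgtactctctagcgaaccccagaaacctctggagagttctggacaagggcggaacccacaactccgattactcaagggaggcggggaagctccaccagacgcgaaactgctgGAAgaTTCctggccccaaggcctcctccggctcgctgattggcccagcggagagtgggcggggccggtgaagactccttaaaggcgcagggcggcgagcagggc
Hspb1: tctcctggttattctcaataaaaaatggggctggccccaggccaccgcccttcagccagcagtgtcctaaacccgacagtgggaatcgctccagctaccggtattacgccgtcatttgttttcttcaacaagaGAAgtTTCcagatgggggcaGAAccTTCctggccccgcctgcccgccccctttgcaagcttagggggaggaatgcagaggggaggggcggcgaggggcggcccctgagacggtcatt
Hsph1: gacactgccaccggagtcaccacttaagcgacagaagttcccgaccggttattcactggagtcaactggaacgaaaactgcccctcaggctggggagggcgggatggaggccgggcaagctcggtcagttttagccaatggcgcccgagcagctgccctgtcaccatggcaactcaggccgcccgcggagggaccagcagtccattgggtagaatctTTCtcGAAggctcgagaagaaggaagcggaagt
Hspe1: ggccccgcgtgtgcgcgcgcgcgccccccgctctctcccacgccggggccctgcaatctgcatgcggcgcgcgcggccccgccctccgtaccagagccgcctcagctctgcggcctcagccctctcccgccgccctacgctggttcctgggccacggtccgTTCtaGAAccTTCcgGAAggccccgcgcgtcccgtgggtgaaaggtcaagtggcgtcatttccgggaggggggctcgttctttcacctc
The Hspb1 stretch held 2 matches, whose first bases lay 117 and 97 bases before the start. The Hspe1 stretch held 3 overlapping matches, and these also made 2 overlapping matches to the longer, 3-unit forms GAANNTTCNNGAA and TTCNNGAANNTTC. The 250 bases before Hspa1a and before Hspa1b were identical at 247 positions. Over all 32851 promoters of the table, 12.8% held the 2-unit motif and 0.466% the 3-unit motif. Counted by gene, since a gene can have several promoters, the shares were 14.5% and 0.514% of 27025 genes. Of the 72 genes of the chaperone lists that had a promoter there, 16 (22.2%) held the 2-unit motif and 3 held the 3-unit motif. Hspe1 and Hspd1 were both among these 3. Their stretches overlap and hold the same site, read on opposite strands, so these genes are not independent in the count. The match is one of letters only, and no binding was measured.

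Hspa1a had a value of 14.07 in tumor mad565, 12.67 in mad559, 11.77 in mad548, 10.66 in mad551 and 10.19 in mad554. In the low tumors it was 6.70 in mad550, 6.48 in mad558, 6.46 in mad563, 6.42 in mad549 and 6.07 in mad556. Values of the 10 tumors are given in this order throughout. The tumors just outside the groups had 9.38 (mad560, below mad554) and 6.79 (mad555, above mad550), so the low end was not set off from its neighbours by a gap. The 5 low values lay close to the medians of their arrays, 6.30 to 6.38. The difference between the group means was 5.45, and the highest tumor was 256-fold above the lowest. These values chose the groups and were not tested.

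Hspa1b followed the same order closely and was not tested either, since its transcript is nearly that of Hspa1a. Its brightest probe set averaged 13.12 ± 1.16 (SD, n = 5) in the high tumors and 8.29 ± 0.69 (SD, n = 5) in the low tumors, and its other 2 probe sets differed by 5.58 and 5.81. Ranking by Hspa1b gave the same 5 high tumors and 4 of the 5 low tumors, with mad555 in place of mad550.

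**Figure D1:**
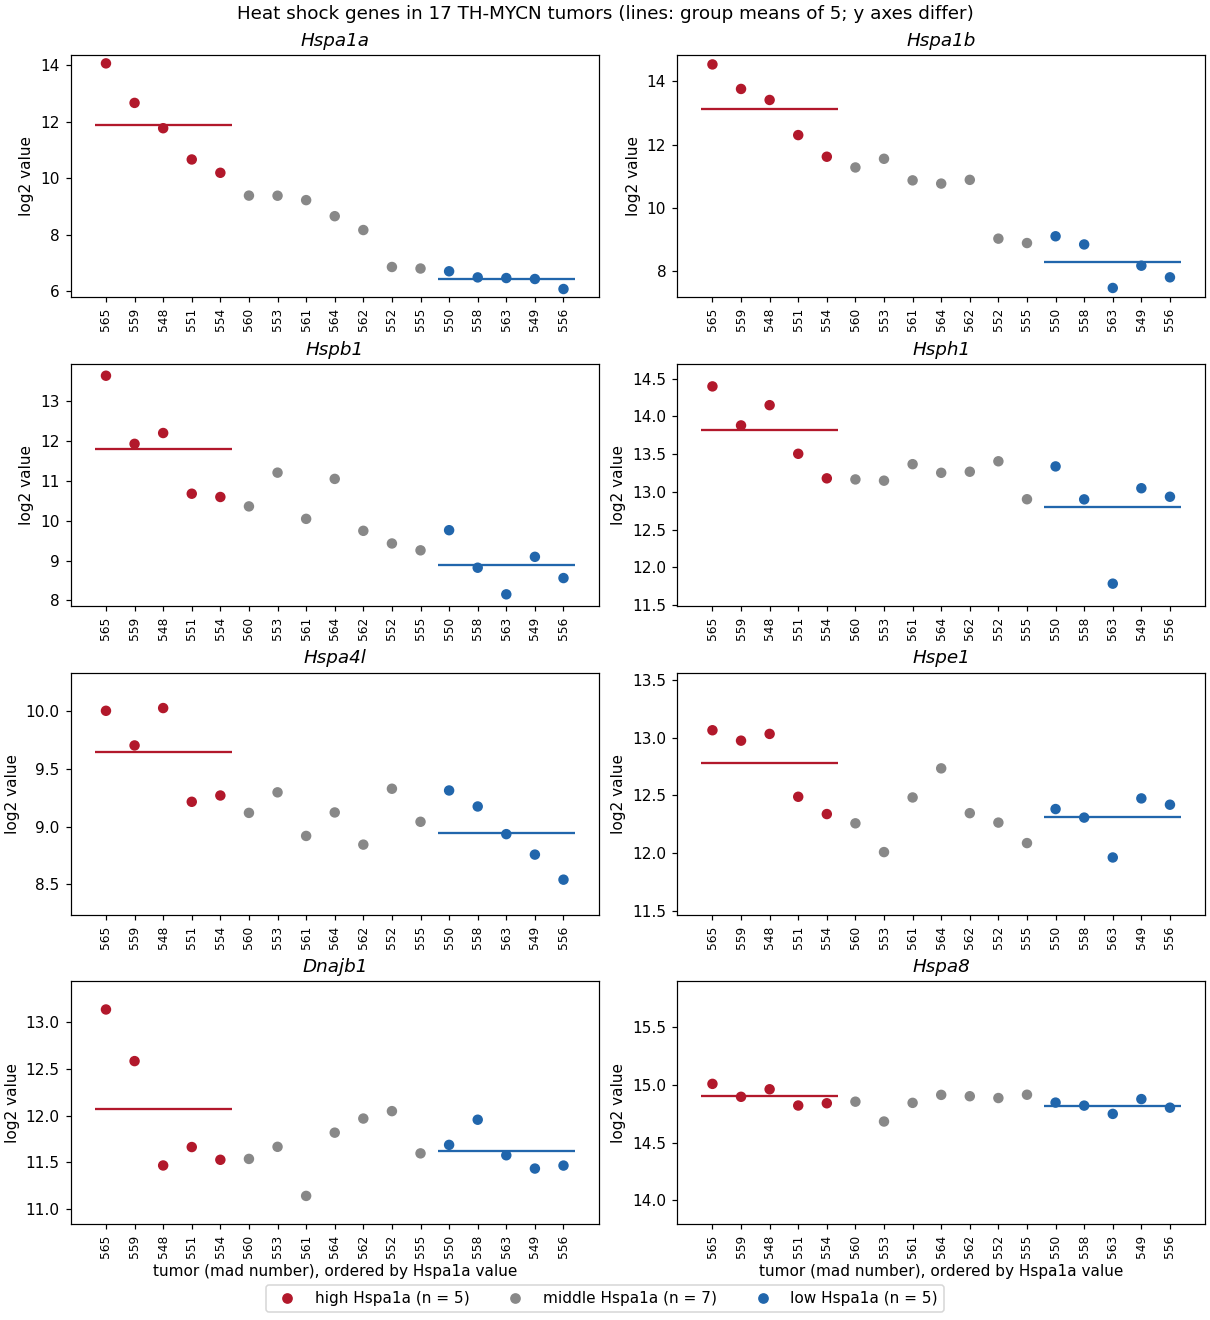
Log2 values of 8 heat shock genes in each of the 17 tumors, which stand on the x axis in order of falling Hspa1a value; horizontal lines are the means of the 5 high and 5 low tumors, and the y axes differ. Hspb1 falls from 13.63 in mad565 to 8.15 in mad563, though not in strict order, since mad553 (11.20) stands above mad551 and mad554, whereas Dnajb1 is high only in mad565 and mad559 and Hspa8 is nearly level at 14.68 to 15.01.

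Across all other genes, no gene of 18191 passed the comparison of 5 with 5 tumors in limma (Benjamini-Hochberg adjusted p under 0.05), and the smallest adjusted p was 0.191, for Pomc. At an unadjusted p under 0.05 there were 1481 genes (8.14%), 850 of them higher in the high tumors (4.67%) and 631 lower (3.47%). The groups did not overlap for 148 genes higher (0.814%) and 102 lower (0.561%). The median difference of all genes was 0.02 and 54.9% of genes were higher in the high tumors. The Hspa1a values of the high tumors themselves ran from 10.19 to 14.07, and the relation was also fitted in limma over all 17 tumors with the Hspa1a value as a continuous term. In that fit 32 genes passed (0.176%), 20 rising with Hspa1a (0.11% of genes) and 12 falling (0.066%). Without mad565 that fit called 3 genes, 2 rising (Hspb1 and Wdr66) and 1 falling (Camk1g), so every other call of it given below was lost without that tumor. Differences from it are given for a step of 5.45 in Hspa1a, the distance between the group means. In bulk tumors, fewer cells of a type and less RNA per cell cannot be told apart, and the number of arrays limits the precision of every value.

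Of the other chaperones, the small heat shock protein Hspb1 (HSP27), which holds unfolded proteins and binds actin, followed Hspa1a most closely. It had values of 13.63, 11.93, 12.20, 10.68 and 10.59 in the high tumors and 9.76, 8.82, 8.15, 9.09 and 8.56 in the low tumors. The groups did not overlap, and the middle tumors lay between 9.26 and 11.20. The difference of 2.93 ± 0.52 (SE), a 7.60-fold change, had a limma adjusted p of 0.322 over 5 against 5 tumors. Over 17 tumors Hspb1 rose by 3.02 ± 0.26 (SE; limma adjusted p = 1.2e-05), with Pearson's r = 0.94 and Spearman's rho = 0.92 as description. Without mad565 and mad559, the tumors farthest from the median Hspa1a value, r was 0.90. Its second probe set differed by 3.03. Hspb1 was the gene of highest r with Hspa1a, and it passed in all 26 alternatives of the 17-tumor fit.

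The other 8 small heat shock proteins differed by -0.17 to 0.28, and none had an unadjusted p under 0.05. Cryab, αB-crystallin, which is abundant in muscle, had 7.99, 8.02, 7.2, 6.94 and 8.12 in the high tumors and 9.94, 6.97, 5.84, 7.70 and 7.11 in the low tumors. Its difference of 0.14 ± 0.60 (SE) was smaller than the spread within either group, and its direction turned under several settings given below.

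The HSP110 proteins Hsph1 and Hspa4l, nucleotide exchange factors that release HSP70 from its substrate, both rose over 17 tumors. Hsph1 had 14.40, 13.88, 14.15, 13.51 and 13.18 in the high tumors and 13.34, 12.90, 11.79, 13.05 and 12.94 in the low tumors. The groups overlapped only in that mad554 lay below mad550. The difference was 1.02 ± 0.29 (SE; adjusted p = 0.403 over 5 against 5), and the limma adjusted p over 17 tumors was 0.045. Its second probe set differed by 1.49. Hspa4l had 10.002, 9.70, 10.03, 9.21 and 9.27 against 9.31, 9.17, 8.93, 8.76 and 8.54. Here mad565, mad559 and mad548 stood above all 5 low tumors, while mad551 and mad554 lay within their range. The difference was 0.70 ± 0.20 (SE; adjusted p = 0.403), and the adjusted p over 17 tumors was 0.045. All 5 probe sets of Hspa4l were higher in the high tumors, by 0.68 to 1.19. Neither gene passed the 17-tumor fit without mad565, where the limma adjusted p of both was 0.227. The stretch of 250 bases before Hspa4l held no match to the motif.

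In the HSP70 family itself, Hspa8, the constitutive HSC70, was 15.01, 14.90, 14.96, 14.82 and 14.84 in the high tumors and 14.85, 14.82, 14.75, 14.88 and 14.80 in the low tumors, a difference of 0.09 ± 0.07 (SE) with overlapping groups. Its dimmer probe sets differed by 0.05 to 0.41. The mitochondrial Hspa9 differed by 0.21 ± 0.09 and Hspa2, best known from the testis, by 0.39 ± 0.14 (SE; unadjusted limma p of 0.046 and 0.015). Hspa12b, a distant member known from endothelial cells, was lower in all 5 high tumors, at 6.31 to 6.57 against 6.71 to 6.85, and differed by -0.30 ± 0.09 (SE; adjusted p = 0.403). The 12 endothelial markers had a median difference of -0.18, and their part in the Hspa12b value was not tested.

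The chaperonin pair of mitochondria, Hspe1 and Hspd1, works as one folding chamber and shares a promoter region. Hspe1 had 13.06, 12.97, 13.03, 12.49 and 12.34 in the high tumors and 12.38, 12.31, 11.96, 12.47 and 12.42 in the low tumors. The 3 tumors of highest Hspa1a stood clearly above every low tumor, mad551 was level with the highest of them and mad554 lay within their range. The difference was 0.47 ± 0.16 (SE; unadjusted limma p = 0.013, adjusted p = 0.477). Hspd1, at 13.85 to 14.14 against 13.70 to 13.92, differed by 0.16 ± 0.09. The other 11 chaperonin and prefoldin genes lay between -0.11 and 0.17.

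J-domain proteins hand substrates to HSP70. Dnajb1 (HSP40) was 13.13 and 12.58 in mad565 and mad559, but 11.47, 11.66 and 11.53 in the other 3 high tumors, within the range of 11.43 to 11.96 of the low tumors. Its difference was 0.45 ± 0.30 (SE; unadjusted p = 0.154). The dimmer probe set of Dnajb1 had 9.25, 8.32, 8.34, 7.84 and 8.01 against 7.77, 7.84, 7.69, 7.77 and 7.68, a difference of 0.60, and there every high tumor but mad551 was above all low tumors. Dnaja4 was 7.32 in mad565 and 6.23 to 6.72 in the rest of the high tumors, against 5.88 to 6.47, so that only mad559 of the high tumors lay within the range of the low tumors, with a difference of 0.48 ± 0.18 (SE; unadjusted p = 0.021). Dnajc17, a J-domain protein outside the list, passed over 17 tumors with a slope of 0.41 ± 0.08 (limma adjusted p = 0.047), and its groups did not overlap at 9.78 to 10.28 against 9.53 to 9.75. That call held in 5 of 26 alternatives and not without mad565 (adjusted p = 0.227). The other probe sets of Dnajc17 differed by -0.18 and -0.0051, and the mean of all 3 gave a slope of 0.084 (adjusted p = 0.743).

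The brightest probe set of the cytosolic HSP90 gene Hsp90aa1 showed little difference. Hsp90aa1, the inducible form, was 14.16, 14.28, 14.27, 13.96 and 13.87 in the high tumors and 13.91, 13.98, 13.87, 13.96 and 13.99 in the low tumors, a difference of 0.17 ± 0.10 (SE). The same 3 tumors of highest Hspa1a again stood above all 5 low tumors. Other Hsp90aa1 probe sets of similar level differed by 0.20 and 0.32, and dim ones by 0.10 and 0.096. Hsp90b1 of the endoplasmic reticulum differed by 0.32 ± 0.13 (unadjusted p = 0.031) and Stip1, which links HSP70 to HSP90, by 0.17 ± 0.13. Among regulators, Cacybp differed by 0.36 ± 0.13, the exchange factor Sil1 by 0.23 ± 0.09, Bag3, an HSP70 partner of selective autophagy, by 0.41 ± 0.21 and heat shock factor Hsf2 by -0.33 ± 0.14. Hsf1 and Hsp90ab1 were not analysed here.

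**Figure D2:**
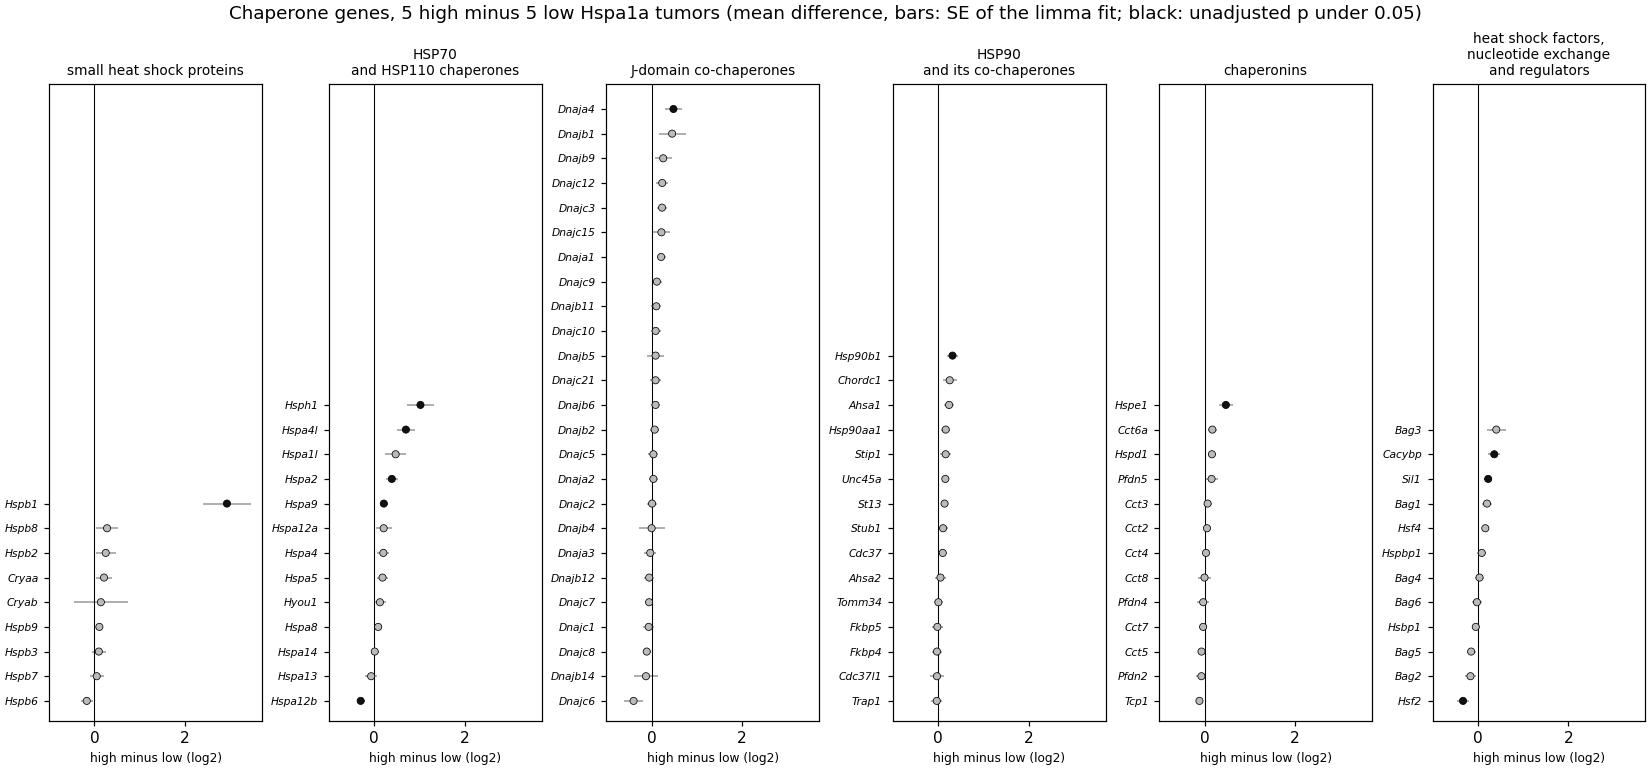
Difference in mean log2 value, 5 high minus 5 low Hspa1a tumors, for each measured gene of 6 chaperone lists, with the standard error of the limma fit; black points have an unadjusted p under 0.05. Each gene is shown by its brightest probe set. Apart from Hspb1 at 2.93, Hsph1 at 1.02 and Hspa4l at 0.70, every gene lies between -0.40 and 0.48. Dimmer probe sets can differ more or less, as for Dnaja4, at 0.77 and 0.03 beside 0.48.

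Over the 6 chaperone lists, 61 of 87 genes measured were higher in the high tumors and 26 lower, with a median difference of 0.09, beside 54.9% higher and a median of 0.02 over all genes. At an unadjusted p under 0.05, 10 were higher (4.67% of all genes were) and 2 lower (3.47%). The groups did not overlap for 1 gene higher and 1 lower, near the 0.814% and 0.561% of all genes. Over 17 tumors 3 of the 87 passed, Hspb1, Hsph1 and Hspa4l, beside 0.11% of all genes. The list medians were 0.20 for HSP70 and HSP110, 0.14 for small heat shock proteins, 0.11 for HSP90 and its partners, 0.09 for J-domain proteins, 0.06 for heat shock factors and regulators and 0.03 for chaperonins. Most chaperone genes thus differed little on their brightest probe set, while a larger share of them was higher than of all genes. The tumors are named here by Hspa1a level, and stress as a cause of that level was not tested.

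The 12 genes of largest positive difference, taken among genes at or above the median level whose groups did not overlap, ran from 2.93 (Hspb1) to 0.80 (Mreg), and none passed over 5 against 5 tumors. Pomc, the precursor of corticotropin and endorphin, followed Hspb1. It had 8.87, 8.75, 10.68, 10.36 and 10.25 in the high tumors and 7.19, 6.94, 7.48, 7.68 and 7.27 in the low tumors. All 5 high tumors were above all low ones, although mad565 and mad559 had the lowest Pomc values of the high group. The difference was 2.47 ± 0.36 (SE; limma adjusted p = 0.191), and in the middle tumors Pomc ran from 7.82 to 11.50. Its slope over 17 tumors did not pass (adjusted p = 0.293).

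Npy, a neuropeptide of sympathetic neurons, had 9.81, 9.27, 10.33, 11.89 and 12.06 against 9.07, 8.47, 9.07, 9.04 and 8.65. As with Pomc, the values in mad565 and mad559 were the lowest of the high group. The difference was 1.81 ± 0.48 (SE; adjusted p = 0.391), and over 17 tumors r was 0.36. Rgs1, a regulator of G-protein signalling abundant in leukocytes, had 9.95 in mad565 and 8.16 to 8.41 in the other high tumors, against 6.51 to 7.81, a difference of 1.34 ± 0.34 (SE). It passed over 17 tumors (limma adjusted p = 0.047) but not without mad565 (0.325). The bicarbonate transporter Slc4a10 differed by 1.21 ± 0.20, the natriuretic peptide receptor Npr2 by 1.01 ± 0.22, Rasl11b by 0.96 ± 0.20, Tmie by 0.93 ± 0.18, the G-protein subunit Gng4 by 0.92 ± 0.29 (0.94 and 0.046 on its dimmer probe sets) and the metalloprotease Adam8 by 0.89 ± 0.18 (SE). The collagen lysyl hydroxylase Plod2 differed by 0.80 ± 0.15, and Mreg, melanoregulin, by 0.80 ± 0.14 (SE). Of these, Mreg passed over 17 tumors (adjusted p = 0.021), with 8.75 to 9.40 in the high tumors against 8.09 to 8.53.

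Among the 12 genes of largest negative difference, Camk1g, a calcium and calmodulin dependent kinase of neurons, stood first. It had 6.74, 6.61, 6.0, 7.89 and 7.30 in the high tumors and 7.99, 8.88, 9.02, 8.51 and 8.75 in the low tumors. The groups did not overlap, with mad551 just below mad550. The difference was -1.72 ± 0.31 (SE; adjusted p = 0.322), a level 3.29-fold higher in the low tumors, and over 17 tumors it fell by 1.58 ± 0.24 on the log2 scale (limma adjusted p = 0.0097). Camk1g passed in 25 of the 26 alternatives of that fit. Myrip, a melanosome and granule transport protein, had 7.34 to 8.18 against 8.33 to 8.96 and differed by -0.97 ± 0.18. Abat, the enzyme that breaks down GABA, had 8.99, 9.24, 9.60, 9.90 and 9.33 against 10.07, 10.41, 10.57, 9.90 and 10.13, with mad551 and mad549 almost touching, and differed by -0.81 ± 0.18 (SE). Both passed over 17 tumors (adjusted p of 0.039 and 0.031). The remaining 9 differed by -0.93 to -0.59 without passing either fit: Slc35f2, the sialyltransferase St6gal1, Snn, the ephrin receptor Epha5, Mmp16, Fez1, Zfp462, Stat5b and the heparan sulfate enzyme Sulf2. The probe sets of Sulf2 disagreed, since another of similar level differed by 0.12 and a dimmer one by 0.02. The dimmer probe sets of Stat5b (-0.02), St6gal1 (-0.05), Snn (0.12) and Abat (0.05) did not show the difference either. Those of St6gal1, Snn and Abat had values of 4.76 to 5.79 in all tumors, near the array's background, where a difference may not show.

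**Figure D3:**
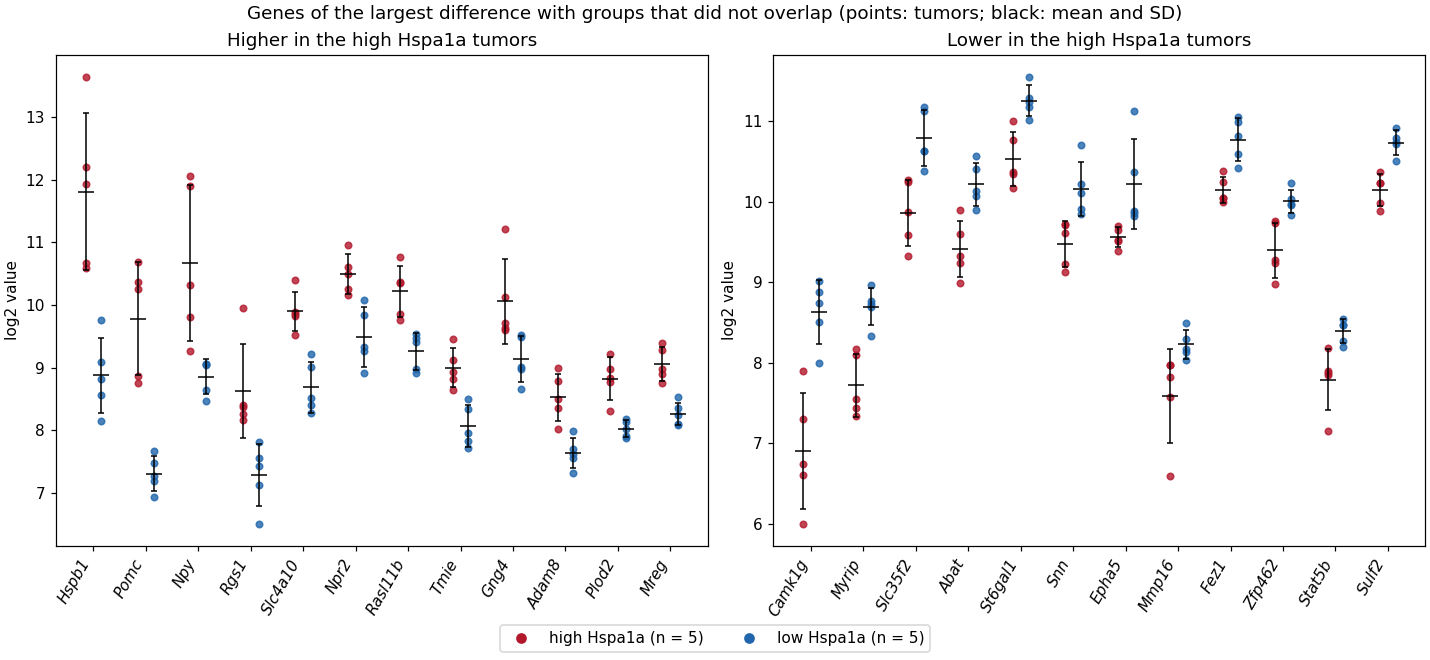
Log2 values in the 5 high (red) and 5 low (blue) Hspa1a tumors for the 12 genes of largest positive and the 12 of largest negative difference with groups that did not overlap; black marks are the mean and SD. Within the high group Hspb1, Pomc and Npy spread widely, with SDs of 1.25, 0.90 and 1.25, and Rgs1 owes its spread to 1 tumor at 9.95.

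Of the 32 genes that passed over 17 tumors, 6 were also among these 24 (18.8% of the one set and 25% of the other). The genes most like Hspa1a over 17 tumors after Hspb1 were Prl8a2 (r = 0.89), Inpp5a (0.87), Prok2 (0.85), Capn6 (0.85), Mreg (0.83), Wdr66 (0.83), Phyhip (0.81), Dnajc17 (0.81) and Crnde (0.80). The least alike were Tfcp2 (-0.87), Hcn3 (-0.86), Mphosph9 (-0.86), Camk1g (-0.85) and Shank3 (-0.83). These correlations are descriptions over the tumors that also ranked the groups. Inpp5a, which removes a phosphate from inositol trisphosphate, had 9.87, 9.74, 9.54, 9.05 and 9.69 against 9.01, 8.82, 8.98, 8.83 and 8.81. The groups did not overlap, with mad551 the nearest to the low tumors. Its slope was 0.70 ± 0.10 (limma adjusted p = 0.0097), and it passed in 25 of 26 alternatives. Capn6, a calpain without protease activity, had 10.01, 10.11, 9.16, 7.84 and 7.92 against 8.35, 6.53, 7.0, 7.54 and 7.63. It was high in 3 tumors only, and mad551 and mad554 lay below mad550. Its slope was 1.87 ± 0.28 (adjusted p = 0.0097), although its dimmer probe set differed by 0.28 only.

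Prl8a2, Prok2, Phyhip and Crnde had values of 4.13 to 5.79 in all tumors, below the median gene level of 7.54, where small differences lie near the array's background. Of the other genes that passed, Sstr2, a somatostatin receptor of sympathetic cells, had 8.97, 8.81, 8.14, 6.76 and 8.71 against 7.33, 6.86, 7.13, 7.07 and 6.82. Here mad551 was below every low tumor and the other high tumors above them all. The difference was 1.24 ± 0.35 (SE), and the slope 1.46 ± 0.27 (limma adjusted p = 0.039). Sec11c, a subunit of signal peptidase, and the zinc transporter Slc39a11 rose by 1.09 ± 0.21 and 0.54 ± 0.11. Dpysl4, a collapsin response protein of growing axons, fell by 1.53 ± 0.30, Shank3, a scaffold of synapses, fell by 0.53 ± 0.09, and Prkca, protein kinase C alpha, fell by 0.66 ± 0.12 on the log2 scale over the same step. The dimmer probe sets of Prkca differed by 0.08 and 0.03 between the groups. The other genes that passed were Wdr66, Lmo7, Serinc5, E330020D12Rik, 1700086L19Rik and Gm14057 (rising) and Zfp697, D430041D05Rik and St6galnac3 (falling). Wdr66 had values of 5.17 to 7.36 in all tumors, also below the median gene level of 7.54. It differed by 1.35 between the groups, but its dimmer probe sets differed by -0.02, -0.11 and 0.65. Its slope ran from 0.44 to 1.66 among the alternatives, and it passed in 21 of the 25 that tested it. The 2-unit heat shock motif was found before 6 of the 16 rising genes with a promoter in the table. It was found before 1 of 9 falling genes, beside 13% of the genes tested. The 3-unit form was found before 0 of the 16 and 0 of the 9, beside 0.484%. Of the genes of largest difference given above, 1 of 10 positive and 1 of 9 negative ones with a promoter held the 2-unit motif.

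**Figure D4:**
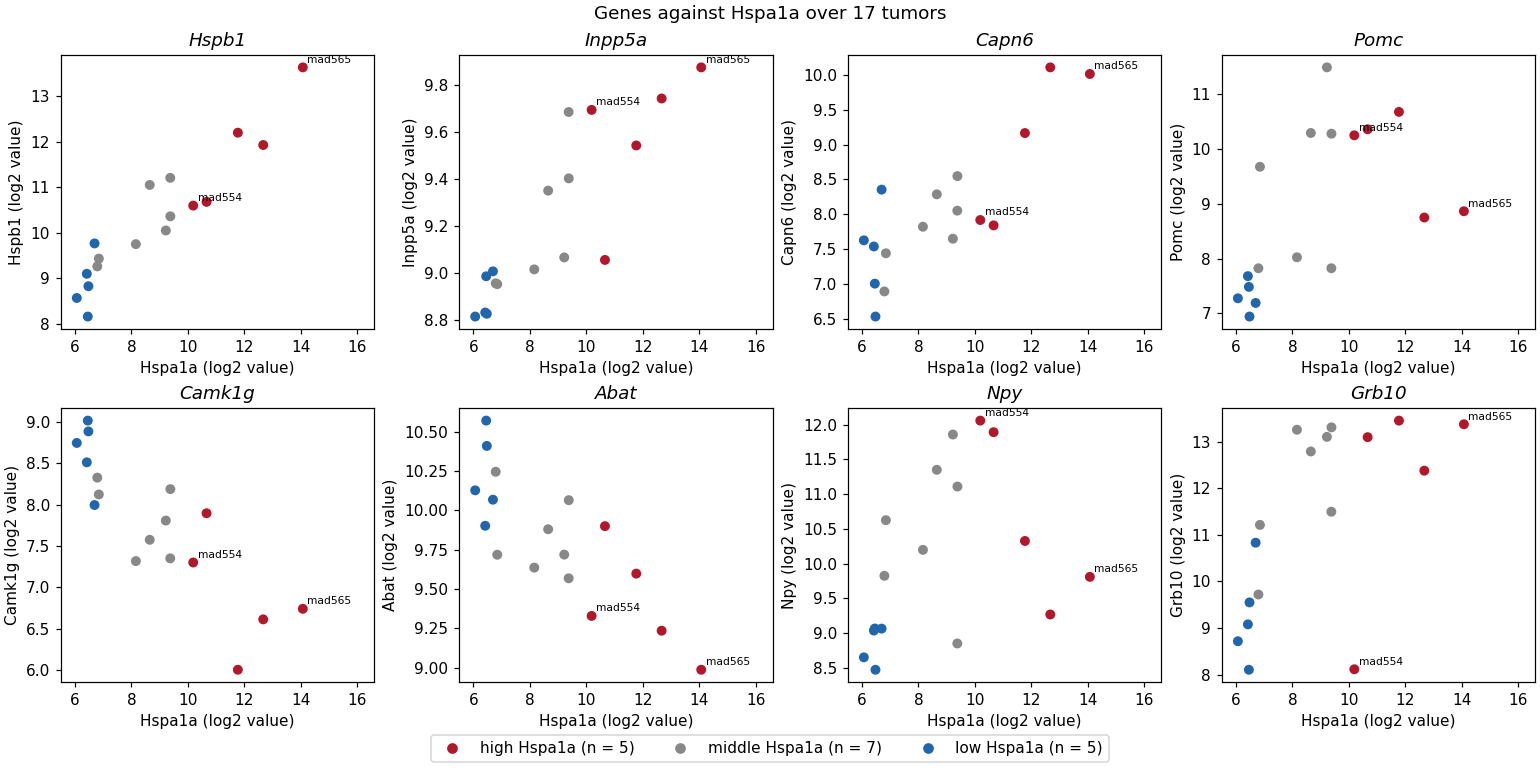
Log2 value of 8 genes (y axis) against the Hspa1a log2 value (x axis) in 17 tumors, coloured by group, with mad565 and mad554 named. Hspb1, Inpp5a and Camk1g change along the whole range, Pomc and Npy are highest near the middle, and Grb10 is high in most tumors above an Hspa1a value of 8 but 8.11 in mad554.

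Grb10, an imprinted adaptor of the insulin receptor, fell outside the rule for named genes and was picked after its values were seen. It had 13.37, 12.38, 13.45, 13.10 and 8.11 in the high tumors and 10.83, 9.55, 8.10, 9.08 and 8.72 in the low tumors. All high tumors but mad554 were above every low tumor, and mad554 was among the lowest of all. The difference was 2.83 ± 0.93 (SE; limma adjusted p = 0.452). LOC102631979, a non-coding RNA that the RefSeq table places within Grb10, showed the same pattern, with 9.79, 9.02, 10.32, 9.88 and 6.08 against 7.14, 6.60, 5.48, 5.91 and 6.06. With 4 against 4 tumors, which leaves out mad554 and mad550, Grb10 differed by 4.21 and LOC102631979 by 3.74, and both passed (adjusted p = 0.0016). In the 17-tumor fit neither passed (adjusted p of 0.176 and 0.086).

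Genes of other stress responses were read beside the chaperones. Over all genes 54.9% were higher, and 4.67% were higher and 3.47% lower at an unadjusted p under 0.05. Of 14 genes on a further list of those that HSF1 induces, Hspa4l among them, 13 were higher in the high tumors, with a median difference of 0.25, and at an unadjusted p under 0.05 there were 3 higher and 1 lower. The metallothionein Mt1 differed by 0.42 ± 0.17 and the heme oxygenase Hmox1 by 0.47 ± 0.31 (SE). Of 35 immediate early genes, which are induced within minutes and also respond to tissue handling, 26 were higher, the median was 0.25 and 5 were higher at an unadjusted p under 0.05. Atf3 had 9.12, 7.43, 6.79, 7.66 and 7.99 against 7.68, 6.85, 6.25, 6.87 and 6.62. Only mad565 and mad554 were above all low tumors, and the difference was 0.95 ± 0.38 (SE; unadjusted p = 0.030). Klf4 differed by 0.70 ± 0.22, Btg2 by 0.50 ± 0.18 and Dusp1 by 0.41 ± 0.15. Fos ran from 7.42 to 10.31 in the high tumors and from 7.63 to 9.19 in the low tumors, a difference of 0.19 ± 0.51 (SE).

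Of 18 hypoxia response genes, 13 were higher, and 6 had an unadjusted p under 0.05 in that direction, beside 54.9% and 4.67% of all genes. P4ha1, a collagen prolyl hydroxylase induced by low oxygen, had 9.86, 9.26, 9.50, 9.49 and 10.15 against 8.99, 8.73, 8.95, 9.07 and 8.67. Its groups did not overlap, and the difference was 0.77 ± 0.16 (SE; limma adjusted p = 0.334). Pdk1, which turns pyruvate away from the mitochondria, differed by 0.64 ± 0.26 and Ndrg1 by 0.47 ± 0.15 (SE), both with overlapping groups. The list median was 0.16. Glucocorticoid-induced genes had a median of 0.38, with 12 of 13 higher and 4 of them at an unadjusted p under 0.05 (4.67% of all genes), among them the kinase Sgk1 at 0.78 ± 0.27. Of 11 p53 targets, 8 were higher with a median of 0.10, and 4 of them had an unadjusted p under 0.05. The cell cycle inhibitor Cdkn1a differed by 0.65 ± 0.26 (SE). Genes of the unfolded protein response had a median of 0.11, with 15 of 20 higher and 0 of them at an unadjusted p under 0.05 in that direction, where 1 was lower. Ddit3 (CHOP) differed by 0.27 ± 0.16. Apart from Hspa4l over 17 tumors, none of the genes of these lists passed in limma over 5 against 5 or over 17 tumors. The lists share members, Cdkn1a, Dusp1 and Mt1 among them, and their counts are not independent.

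Genes of the sympathoadrenal lineage divided. Th, the rate-limiting enzyme of catecholamine synthesis, was present in every tumor, at 11.54 to 14.33 over all 17. Of the 23 genes measured, 5 were higher at an unadjusted p under 0.05 and 3 were lower, beside 4.67% and 3.47% of all genes. Insm1, a factor of neuroendocrine differentiation, had 12.30, 12.54, 12.97, 12.72 and 12.34 against 11.97, 11.52, 11.46, 12.11 and 12.18, with no overlap, and differed by 0.72 ± 0.18 (SE; adjusted p = 0.391), whereas its dimmer probe set differed by 0.05. The receptor Ret differed by 1.08 ± 0.33, Th by 0.93 ± 0.38 and chromogranin Chga by 0.58 ± 0.21, with overlapping groups, and the dimmer probe set of Ret differed by 0.13. In the other direction, Hand2, a core factor of the lineage, had 12.26 to 12.77 against 12.79 to 13.05 with no overlap and differed by -0.32 ± 0.11, and the receptor kinase Alk differed by -0.39 ± 0.14 (SE). The differences of the list ran from -0.49 to 1.81 with a median of 0.01, and none of these genes passed either fit. The 23 proliferation genes differed by -0.17 to 0.19 (median -0.06), and the 31 subunits of the 26S proteasome had a median of 0.00.

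RNA of other tissues differed between the groups. The low group held mad549 and mad550, in which skeletal muscle genes were high, and the mean of the 15 muscle genes was 9.58 and 10.35 there, 5.84 to 6.0 in the other low tumors and 5.88 to 6.52 in the high tumors. All 15 were lower in the high group, with a median difference of -1.63, and without these 2 tumors the median was 0.30. Acta1, skeletal actin, was 12.38 and 13.02 in mad549 and mad550 and 6.31 to 8.29 in the other 8 tumors. Ryr1, the calcium channel of muscle, was lower in all 5 high tumors, at 4.62 to 5.77 against 5.82 to 8.26.

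All 13 macrophage genes were higher in the high group, with a median of 0.46, and 5 had an unadjusted p under 0.05, beside 54.9% and 4.67% of all genes. The mean of the list was 9.19 to 9.92 in the high tumors and 8.64 to 10.06 in the low tumors, where mad550 was the highest. Cd14 had 8.55, 7.90, 8.57, 7.72 and 7.97 against 7.80, 6.84, 7.22, 6.95 and 6.74, overlapping in mad550 alone, and differed by 1.03 ± 0.23 (SE; adjusted p = 0.334). The complement gene C1qb differed by 0.85 ± 0.31, Lyz2 (lysozyme) by 0.68 ± 0.25 and the mannose receptor Mrc1 by 0.68 ± 0.31. With the mean of the macrophage list as a covariate the 17-tumor fit called 47 genes, of which 16 were among the 32 called without it. Interferon genes had a median of 0.33, with 13 of 14 higher and mad565 alone at a list mean of 7.81 against 6.33 to 6.75 in the other high tumors and 6.25 to 6.80 in the low tumors. Hepatocyte genes were higher in 9 of 9 (median 0.27). Their list mean was 7.12 in mad559, 5.18 to 5.95 in the other high tumors and 5.10 to 5.66 in the low tumors. No gene of the interferon or hepatocyte list had an unadjusted p under 0.05. Without the 3 tumors rich in muscle RNA (mad549, mad550 and mad553) the 17-tumor fit called 8 genes, 6 of them among the 32. The part of liver RNA in the differences of single genes was not tested.

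**Figure D5:**
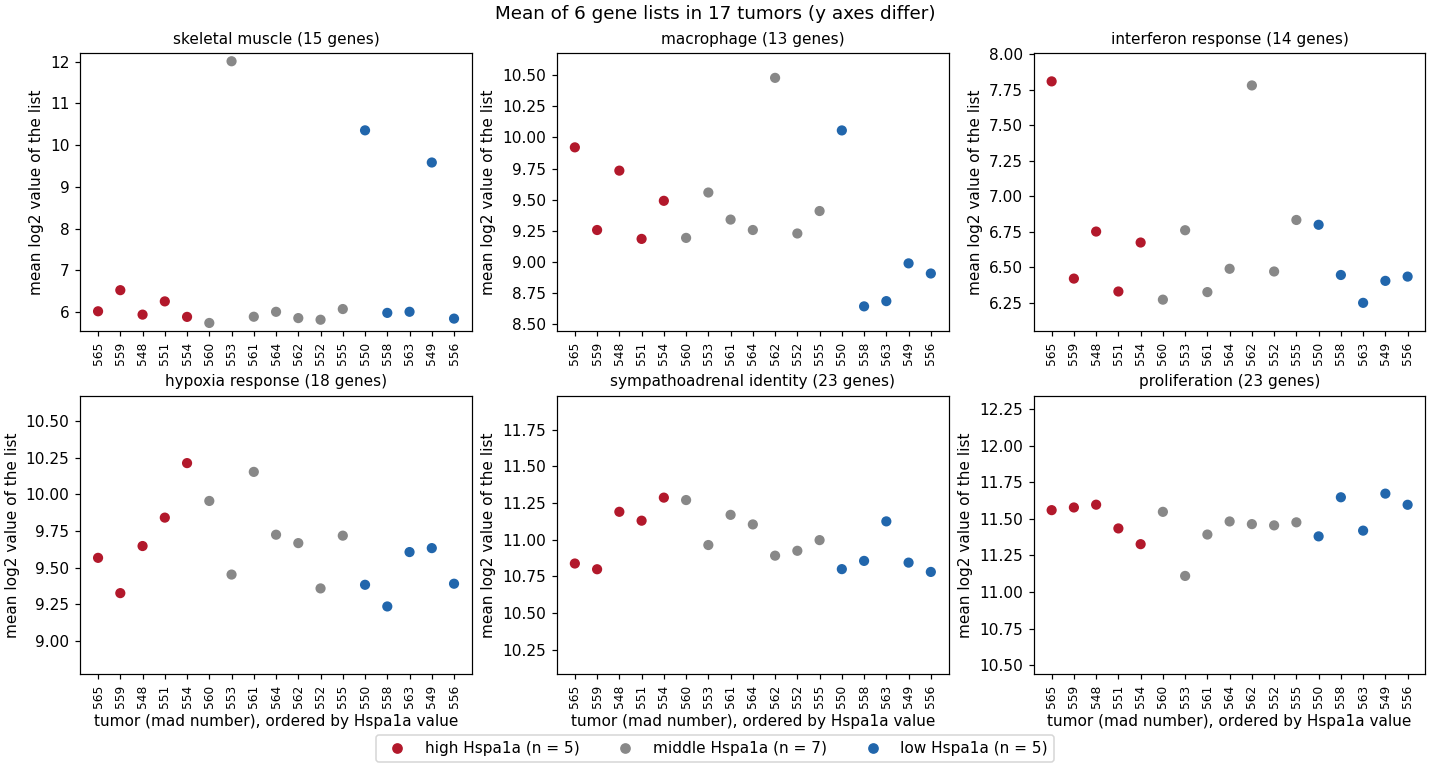
Mean log2 value of 6 gene lists in each of the 17 tumors, ordered by falling Hspa1a value; each point is 1 tumor and the y axes differ. Muscle RNA stands out in mad553, mad550 and mad549, the interferon mean in mad565 and mad562, and the proliferation mean stays within 11.11 to 11.67.

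Measures of the arrays did not pass an exact test between the groups of 5. The 3′ minus 5′ signal of the Actb and Gapdh control probe sets, which grows as RNA degrades, averaged 2.24 ± 0.05 (SD, n = 5) in the high tumors and 2.16 ± 0.13 (SD, n = 5) in the low tumors (exact two-sided permutation test, p = 0.262, where the smallest p possible is 0.0079). The difference for Actb alone gave p = 0.063 and that for Gapdh p = 0.706 in the same exact test. For Actb all high tumors, at 1.81 to 1.96, lay above every low tumor but mad556 (1.97). Without mad556 the mean of both genes passed that test, as given below. With the mean 3′ minus 5′ signal as a covariate, 7 genes passed the 17-tumor fit, Hspb1 among them, where 32 passed without it. Xist, which females express, was high in 4 of 5 high tumors, 5 of 5 low tumors and 3 of 7 middle tumors, and the only high tumor without Xist RNA was mad554. Among the 12 tumors with Xist, 3 genes passed the 17-tumor fit, and Hspb1 was one of them.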

How the data were processed

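The series holds 17 tumors of 1 labelled group, each on 1 Affymetrix whole-genome mouse array. The authors deposited log2 values per probe set. The submitters' processing notes name RMA and Partek 6.4, and the study's text names both RMA and MAS5. The values were read as RMA log2 signals and were not normalized again. Groups were cut from the ranking by Hspa1a, not taken from labels, and the tumors, gene lists and alternatives were chosen with earlier results of these data known.

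Of 45101 probe sets, 34945 had 1 gene symbol, 932 several and 9160 were unnamed here. Each of the 18193 genes was represented by its single-symbol probe set of highest mean, and Hspa1a and Hspa1b were left out of the tests. The symbol annotation comes from the array's platform table, and 34741 of the single-symbol probe sets matched a gene in the RefSeq table. No filter on dim probe sets was applied. Both fits used limma 3.58.1 in R 4.3.3 (lmFit and eBayes, two-sided, Benjamini-Hochberg over 18191 genes, threshold 0.05), first the 10 tumors in 2 groups, then all 17 with the Hspa1a value as covariate, which was planned as an alternative. Both were tested on simulated data. Array values were compared with an exact permutation test in SciPy 1.17.1. Lists were described by counts and medians. The text names list members, the 12 largest differences each way among non-overlapping genes at or above the median level (since none passed; clone and model names left out), the 10 genes of highest and 5 of lowest r with Hspa1a, and the genes that passed over 17 tumors. The labels do not say that the tumors came from separate mice, so p-values measure only the spread between these samples. Alternatives comprised 25 planned fits and 26 added after seeing the data.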

Additional observations from a re-analysis of the deposited data

Results flagged for a closer look

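In 282 groups of 5 or 7 tumors (94 genes, with high, middle and low tumors taken apart), 18 held a tumor set apart from the others of its group by Dixon's test, and chance gives about 1 in 20 groups. Of these, 6 were mad553, a middle tumor high in muscle RNA: Ryr1 was 10.16 (5.67 to 6.30 in the other middle tumors), Acta1 14.25 (6.54 to 7.03), Cryab 10.27 (6.95 to 8.02), Hspa8 14.68 (14.84 to 14.91), Hsp90aa1 13.85 (13.96 to 14.03) and Hspa12b 6.10 (6.61 to 6.95). In the middle tumor mad562, Atf3 was 8.83 (7.52 to 7.90 in the others) and Epha5 8.61 (9.73 to 10.52).

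Among the high tumors, mad565 had an Rgs1 value of 9.95 (8.16 to 8.41 in the other 4) and a Hand2 value of 12.26 (12.71 to 12.77). The tumor mad554 had a Grb10 value of 8.11 (12.38 to 13.45) and a Hsp90b1 value of 12.33 (12.47 to 12.50). E330020D12Rik was 10.06 in mad559 (8.86 to 9.21) and Slc39a11 9.48 in mad551 (10.09 to 10.30).

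Among the low tumors, Hsph1 was 11.79 in mad563 (12.90 to 13.34 in the other 4), which is also the tumor of lowest Hspb1. C1qb was 11.37 (9.62 to 10.10) and D430041D05Rik 9.30 (9.71 to 9.81) in mad550, and Slc39a11 was 9.23 in mad558 (9.55 to 9.63).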

How the results depend on the processing

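No paired analysis was possible because all tumors belong to 1 labelled group and each was measured once. Only 1 probe set is annotated to Hspa1a alone, so ranking by a second one was not run, and leaving out mad562 was not run because that tumor is in neither group. Every count below comes from limma.

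In the comparison of 5 with 5 tumors the count of genes passing was 0 higher and 0 lower. It was 3 higher with 4 against 4 tumors (Grb10, LOC102631979 and Spaca1), 1 with 6 against 6 (Pomc), 1 with the mean of all probe sets of a gene (Plod2) and 1 with Xist as a covariate (LOC102631979), and 20 higher and 12 lower in the fit over 17 tumors. Leaving out 1 tumor at a time gave 0 to 3 genes higher and 0 to 1 lower, the most without mad551. The other 10 fits called no gene.

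Of the 32 genes that passed over 17 tumors, Hspb1 passed in all 26 alternatives, with differences of 2.80 to 3.15. Leaving out 1 tumor at a time gave 2 to 31 genes higher and 1 to 22 lower, with 3 genes in all without mad565 (Hspb1, Wdr66 and Camk1g) and 53 without mad551. The count was 6 higher and 2 lower without the 3 muscle-rich tumors, 2 and 1 in the tumors with Xist, 5 and 2 with the 3′ minus 5′ signal as a covariate, and 2 and 1 with ranks of Hspa1a. It was 15 higher and 32 lower with the macrophage mean as a covariate (16 of the 32 genes among them), 13 and 15 among genes at or above the median level (20) and 14 and 7 with the mean of all probe sets (19). The cause was not tested. Camk1g and Inpp5a passed in 25 of the 26, and the other calls in 2 to 23.

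Cryab reversed to -0.030 with 6 against 6 tumors, -0.058 with the mean of its probe sets, -0.10 without shared probe sets, -0.15 with the 3′ minus 5′ signal and -0.0065 with Xist as covariates, ran from -0.28 to 0.75 as single tumors were left out, and was -0.19 over 17 tumors with the macrophage mean. Fos reversed to -0.085 with Xist, ran from -0.21 to 0.51 without single tumors (-0.22 to 0.69 over 17 tumors) and was -0.077 over 17 tumors with the macrophage mean; its values without mad554 and mad558 were both -0.02. Acta1 reversed to 0.52 without mad549 and mad550, and to 0.50 over 17 tumors without the 3 muscle-rich tumors. Signs were followed only for the genes picked for this text, not for all genes tested, and none of the others picked changed sign.

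Of the median differences of the lists, 788 of 796 values stayed within 1 SD of the value in the main comparison. That SD is the spread of the list mean between tumors of the same group, which is wide for muscle genes. Skeletal muscle moved to 0.30 and neutrophil genes to 0.18 without mad549 and mad550, oxidative and metal stress to 0.19 and adrenal cortex to -0.19 among genes at or above the median level, and kidney to -0.086 with 6 against 6 tumors, -0.068 over 17 tumors and -0.051 when ranked by Hspa1b. J-domain proteins ran from 0.030 to 0.12 without single tumors. The 3′ minus 5′ difference ran from 0.042 to 0.13 without single tumors and passed the exact permutation test without mad556 (p = 0.0317).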

Other observations

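For the remaining gene lists, the median differences between the 5 high and the 5 low Hspa1a tumors ran from -0.02 to 0.17. Of 14 oxidative and metal stress genes 8 were higher (median 0.06), and of 18 clock and temperature-responsive genes 11 (median 0.03). At an unadjusted p under 0.05, 1 oxidative and metal stress gene was higher and 1 clock gene lower. Of the lists that follow, 1 adrenal cortex gene was higher and 1 lower at that level, and 1 T and NK cell gene was lower. Fibroblast and pericyte genes had a median of 0.11 (9 of 12 higher), adipocyte genes 0.17 (6 of 8), adrenal cortex genes 0.09 (7 of 9), kidney genes 0.06 (4 of 7), erythroid genes 0.03 (3 of 5) and Schwann cell genes 0.00 (4 of 8). Neutrophil, T and NK cell, and B cell genes each had a median of -0.02, with 5 of 10, 5 of 12 and 3 of 8 higher. No gene of these lists passed in limma, beside 0 of all 18191 genes over 5 against 5 tumors, of which 1481 (8.14%) had an unadjusted p under 0.05.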
